A study of Rattus norvegicus with 9 samples.

Results

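The comparison described here is that of posterior cricoarytenoid muscle of rats aged 18 months with the same muscle of rats aged 6 months. It uses the 3 arrays labelled 18 months and the 3 labelled 6 months, 6 of the 9 arrays in the series. The other 3 come from rats of 30 months. All 8740 probe sets of the Affymetrix Rat Genome U34 array that are not spike-in controls were compared, of 8799 on the array. A probe set is a group of short oligonucleotides that together measure one transcript. Every array carried RNA pooled from the muscles of 4 animals, so each value is a level in a pool and the spread between arrays is a spread between pools. The animals carried no treatment or allele that the labels name. The labels name neither strain nor sex. The study asks which genes of a laryngeal muscle are expressed differently as rats grow old, with 6 months as the baseline.

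The posterior cricoarytenoid is the muscle that opens the vocal folds and so keeps the airway open during breathing. Like other skeletal muscles it is built of fibres whose speed follows from the myosin heavy chain they contain, slow fibres with type I myosin (*Myh7*) and fast fibres with type II myosins (*Myh2*, *Myh1*, *Myh4*). Fibroblasts between the fibres lay down fibrillar collagens, above all types I and III, which are trimmed, cross-linked and later broken down by matrix proteases. The collagen mRNAs report on the making of new matrix and not on the amount of collagen already deposited.

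Of 8740 probe sets, 5244 passed a filter on signal and were tested. These stood for 3163 genes, each represented in lists by its strongest probe set. Signals are from Affymetrix Microarray Suite 5.0, on a linear scale with the same trimmed mean on every array. Changes are given as log2 differences of signal + 32, 18 minus 6 months, with the standard error (SE) from the limma fit. The pseudocount of 32 makes the changes of weak probe sets smaller than their ratios of signals. Median signals were 120.1 to 125 at 6 months and 104 to 116 at 18 months. The tissue label was checked against its markers: of 12 tested genes of a skeletal muscle identity list, *Myh1* had a mean signal of 253 at 6 months and the other 11 ran from 9443 (*Myh2*) to 34163 (*Ckm*), with sums of 215616 to 252328 at 6 months and 250184 to 301871 at 18 months. P-values set the change between ages against the spread between pools of the same age. In such tissue RNA, fewer cells of a type and less RNA per cell cannot be told apart.

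Few probe sets passed the test, and the shifts behind most of the rest were small. With limma, 4 of 5244 probe sets (0.0763%) had an adjusted p under 0.05. The 2 that rose (0.0381%) are both probe sets of *Rab3b*, and the 2 that fell (0.0381%) are *Col1a2* and a probe set without a gene name. The unadjusted p was under 0.05 for 452, 157 higher (2.99%) and 295 lower (5.63%) at 18 months. All log2 changes had a median of -0.04, a lower quartile of -0.18 and an upper quartile of 0.10, and 42.3% lay above 0. Only 8 probe sets were more than 2-fold higher and 14 more than 2-fold lower on this scale, and 6 and 12 of these did so without overlap between the arrays of the ages.

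Non-overlap gives a wider view, in which all 3 signals of one age lie above all 3 of the other. It held for 717 of 5244 tested probe sets (13.7%), 279 higher (5.32%) and 438 lower (8.35%) at 18 months. With 3 arrays per age the smallest p of an exact permutation test is 0.1, so non-overlap is a description and no call. Over genes it held for 440 of 3163 (13.9%), 165 higher (5.22%) and 275 lower (8.69%). Among the 3496 probe sets under the signal filter it held for 373 (10.7%), 92 higher (2.63%) and 281 lower (8.04%). The balance of directions depends on the scaling: after quantile normalization 646 probe sets did not overlap, 348 higher and 298 lower. Asking also for a ratio of mean signals over 1.7, the size of change named in the study's design, left 75 probe sets (1.43%), 29 higher (0.553%) and 46 lower (0.877%). After quantile normalization that rule took 69, with 41 higher and 28 lower.

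The direction also went with signal strength. When tested probe sets were split by signal into 5 equal groups, the weakest group had 27 higher and 89 lower without overlap, and its median change was -0.12. In the strongest group the median was 0.04, with 124 higher and 57 lower. After quantile normalization the medians of these groups were -0.01 and 0.00191. The plot of change against signal strength shows this tilt. Genes of the contractile apparatus and of energy metabolism include many strong probe sets. The medians of their lists are therefore given below also after quantile normalization, and the values of single genes only for some.

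**Figure D1:**
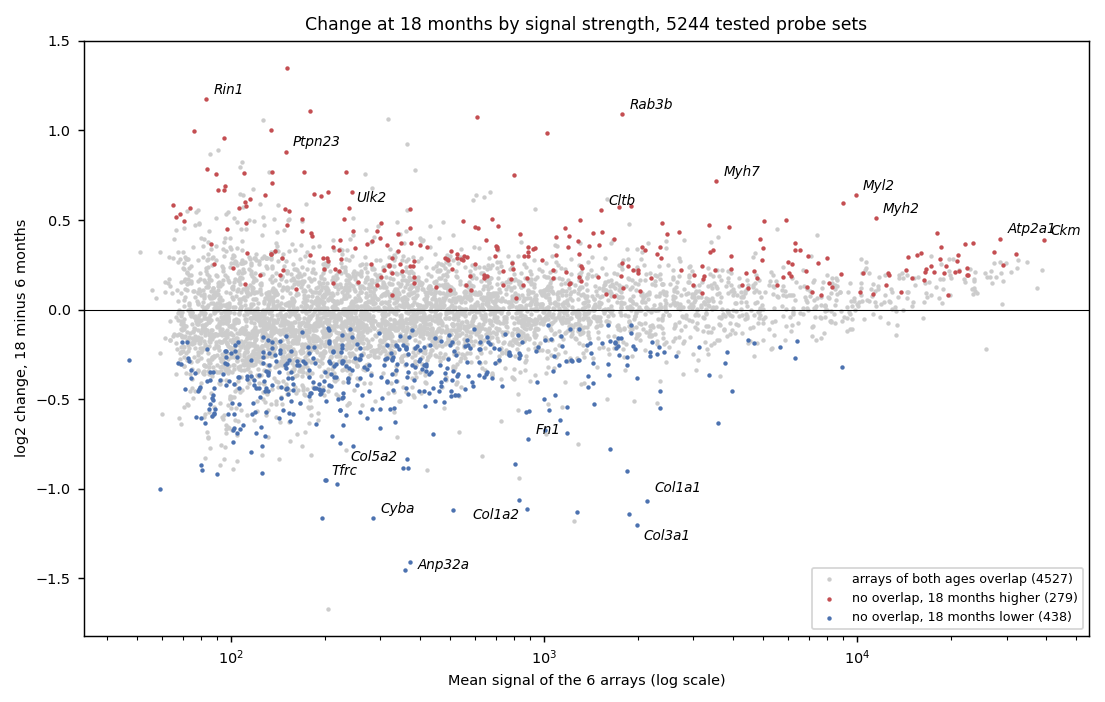
Log2 change at 18 months (vertical axis, 18 minus 6 months) against the mean signal of the 6 arrays (horizontal axis, log scale) for 5244 tested probe sets. Red points (279) are higher and blue points (438) lower at 18 months without overlap between arrays, grey points overlap, and the red points lie mostly at the strong end, with Rab3b, Myh7, Myl2, Myh2 and Ckm labelled, while Anp32a (-1.41), Col3a1 (-1.20), Col1a1 and Col1a2 are labelled among the lowest blue points.

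The smallest adjusted p belonged to *Rab3b*, a small GTPase known for its part in regulated vesicle release. Its stronger probe set gave signals of 1246, 1024 and 1114 at 6 months and 2379, 2527 and 2386 at 18 months, means of 1128 ± 112 at 6 months and 2431 ± 83.3 at 18 months (SD, n = 3). The lowest array at 18 months stood far above the highest at 6 months, a ratio of means of 2.15 and a log2 change of 1.09 (SE 0.12, limma adjusted p = 0.0132). The weaker probe set, made to the same sequence, gave 408, 357 and 378 at 6 months and 853, 831 and 830.4 at 18 months. Its change was 1.08 (SE 0.11, limma adjusted p = 0.00881), so both sets of oligonucleotides rose by the same amount. At 30 months the stronger probe set read 2148, 2426 and 2612. That age was set against the same 6-month arrays, so the 30-month values are given beside those of 18 months and are no separate support.

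*Col1a2*, the gene of the second chain of type I collagen, fell. Its signals were 1365, 1196 and 1086 at 6 months and 611, 479.9 and 547 at 18 months, with no overlap and a mean 2.23-fold higher at 6 months. The log2 change was -1.11 (SE 0.13, limma adjusted p = 0.0168). At 30 months the arrays read 497, 436 and 438. The other probe set that fell, U75405UTR#1_f_at, has no symbol in the platform's table. It read 2849, 2797 and 2119 at 6 months and 1265, 1119.9 and 1065 at 18 months, a log2 change of -1.14 (SE 0.16, limma adjusted p = 0.0401). Fitting only the 6 arrays of both ages, which leaves fewer degrees of freedom, ended all 4 calls, with adjusted p = 0.0650 for both *Rab3b* probe sets and 0.0880 for *Col1a2* and the unnamed probe set. Leaving out 6-month array 2 or 18-month array 3 also left 0 calls. Without 6-month array 1 both *Rab3b* probe sets kept their calls and *Col1a2* did not (limma adjusted p = 0.0969). Without 18-month array 2 there were 2 calls, of which only 1, the weaker *Rab3b* probe set, was among the 4.

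The 250 bases before the annotated start of 3 genes are shown because the 2 named genes that passed the test, and a fast myosin without overlap, can then be set side by side. They are from RefSeq on assembly GRCr8, each on the plus strand and written 5′ to 3′. *Rab3b* is at chr5:128858841-128859090, *Col1a2* at chr4:33518307-33518556 and *Myh2* at chr10:52355489-52355738. Capitals mark 4 motifs, searched on both strands: CCAAT as the CCAAT box, TATAAA as the TATA box, CAGCTG as the core of an E-box bound by myogenic factors, and GGGCGG as the GC box. No 2 matches overlap.
Rab3b: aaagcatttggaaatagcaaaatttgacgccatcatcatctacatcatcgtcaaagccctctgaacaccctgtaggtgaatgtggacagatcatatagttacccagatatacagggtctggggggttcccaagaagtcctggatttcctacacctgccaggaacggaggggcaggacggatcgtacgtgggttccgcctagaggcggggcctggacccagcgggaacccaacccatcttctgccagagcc
Col1a2: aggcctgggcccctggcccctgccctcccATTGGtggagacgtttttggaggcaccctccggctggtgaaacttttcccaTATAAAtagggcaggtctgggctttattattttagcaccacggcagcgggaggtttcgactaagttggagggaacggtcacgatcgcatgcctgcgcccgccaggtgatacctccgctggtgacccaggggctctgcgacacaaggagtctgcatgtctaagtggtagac
Myh2: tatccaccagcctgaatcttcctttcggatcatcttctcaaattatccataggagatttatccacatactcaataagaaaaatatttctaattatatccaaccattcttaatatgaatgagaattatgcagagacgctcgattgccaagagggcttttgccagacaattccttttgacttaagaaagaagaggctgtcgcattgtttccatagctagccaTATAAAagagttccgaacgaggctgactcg
*Col1a2* holds a CCAAT box on the minus strand from base -221 and a TATA box from base -170. *Myh2* holds a TATA box from base -30, counted back from the start. None of the 4 motifs was found in these 250 bases of *Rab3b*. Over 33469 RefSeq promoter windows of 300 bases (250 before the start and 50 after), the CCAAT box was in 37.5%, the TATA box in 14.2%, the E-box core in 15.1% and the GC box in 33.1%. Among the tested genes with such a window, the CCAAT box was in 40% of 140 genes higher without overlap, in 32.1% of 224 lower and in 38.7% of 2249 with overlap. The E-box core was in 19.3%, 14.3% and 17.5% of the same groups, the TATA box in 10.7%, 10.3% and 9.29%, and the GC box in 62.9%, 65.6% and 62.0%. These shares are a description and were not tested. *Col1a1*, *Col3a1* and *Myl2* are not in the promoter table used here.

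Genes of the fibrillar matrix were lower at 18 months almost throughout. Of 19 tested genes for fibrillar collagens and fibril assembly, 18 had a change below 0 and 11 were lower without overlap, against 8.69% of all genes, with 0 higher. Of all genes 42.2% had a change above 0. The lists here and below were chosen with earlier results of these data known. A count set beside the share of all genes is therefore a description and no test. The list's median change was -0.32 and that of all genes -0.04. After quantile normalization the median was -0.26 and all 19 lay below 0. In limma 1 of the 19 passed the adjusted threshold, *Col1a2*, against 0.0632% of all genes, and 9 had an unadjusted p under 0.05, all lower, against 5.72%. The exception above 0 was *Sparc*, a collagen-binding glycoprotein, with a change of 0.04 (SE 0.15) on its strongest probe set, and its other 3 tested probe sets ranged from -0.12 to -0.86.

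*Col1a1*, the α1 chain of type I collagen, has 4 tested probe sets of more than one sequence, and the arrays of the ages do not overlap on any of them. The strongest read 3139, 3153 and 2402 at 6 months and 1449.9, 1080.2 and 1591 at 18 months. Its change was -1.07 (SE 0.18, limma adjusted p = 0.122), and the other 3 gave -1.06, -1.12 and -1.13. All 4 probe sets thus gave nearly the same change, and none passed the adjusted threshold.

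*Col3a1*, the chain of type III collagen, read 3522, 2648 and 2128 at 6 months and 1339.8, 865 and 1337 at 18 months on its stronger probe set. The 6-month arrays spread widely there and still lie above every 18-month array. The change was -1.20 (SE 0.23, limma adjusted p = 0.167), and the other probe set gave -0.69 (SE 0.21). *Col5a2*, a chain of the type V collagen that seeds fibrils, read 574, 496 and 388 at 6 months and 285, 198 and 261 at 18 months, a change of -0.88 (SE 0.17, limma adjusted p = 0.165).

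Fibronectin, *Fn1*, which cells assemble into the early matrix, read 1279, 1225 and 852 at 6 months and 706, 544 and 730.4 at 18 months on its strongest probe set. The arrays did not overlap, and the change was -0.72 (SE 0.22). Its 2 other tested probe sets were much weaker and gave -0.03 and -0.16 with overlap. The remaining non-overlapping members, named after their values were seen, apart from *Lum*, were periostin (*Postn*, -0.52), elastin (*Eln*, -0.45), lumican (*Lum*, -0.41), decorin (*Dcn*, -0.32), the type V chain *Col5a1* (-0.30) and biglycan (*Bgn*, -0.28). Leaving out 18-month array 2 left *Postn* at -0.30 and *Lum* at -0.27, and leaving out 6-month array 1 left *Col5a1* at -0.17. These changes were smaller than those of the type I and III collagens, and none passed the adjusted threshold. *Dcn* has 4 tested probe sets, with changes from -0.32 to -0.90, of which 3 do not overlap.

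Genes of matrix turnover also lay on the lower side, proteases and inhibitors alike. Of 13 tested genes, 10 had a change below 0 and 3 were lower without overlap, against 8.69% of all genes, with 0 higher and a median of -0.20. *Mmp2*, the gelatinase A, read 546, 592 and 562 at 6 months and 463, 359 and 347 at 18 months, a change of -0.52 (SE 0.13), and its weaker probe set gave -0.37. Of the protease inhibitors, *Timp2* had -0.53 (SE 0.13) and *Timp1* -0.39 (SE 0.12), both without overlap. In limma 0 of the 13 passed the adjusted threshold and 3 were lower at an unadjusted p under 0.05, against 5.72% of all genes.

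Genes that process collagen in the secretory pathway had smaller changes. Of its 16 tested genes 11 had a change below 0, with a median of -0.10. The lysyl hydroxylase *Plod2* had -0.38 (SE 0.11) and the prolyl hydroxylase subunit *P4ha1* -0.25 (SE 0.12), both lower without overlap. The chaperone calreticulin, *Calr*, was higher without overlap on its strongest probe set (0.19, SE 0.13), with 0.06 without 6-month array 1, but its other 2 gave -0.11 and -0.07. Among 5 basement membrane genes 4 had a change below 0, with *Col15a1* at -0.34 and the laminin chain *Lamc1* at -0.28 without overlap.

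Fibroblast markers were on the lower side as well. Of 11 tested markers 10 had a change below 0, 6 of them without overlap, against 8.69% of all genes, with a median of -0.41. Their summed signal was 20109 to 25429 at 6 months and 15367 to 16860.1 at 18 months. The matrix list holds 5 of the 11. Of the other 6, 5 had a change below 0 and 1 was lower without overlap (*Pdgfra*, a receptor for platelet-derived growth factor, -0.30, SE 0.11), with a median of -0.24. Their part in the matrix differences was not tested.

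**Figure D2:**
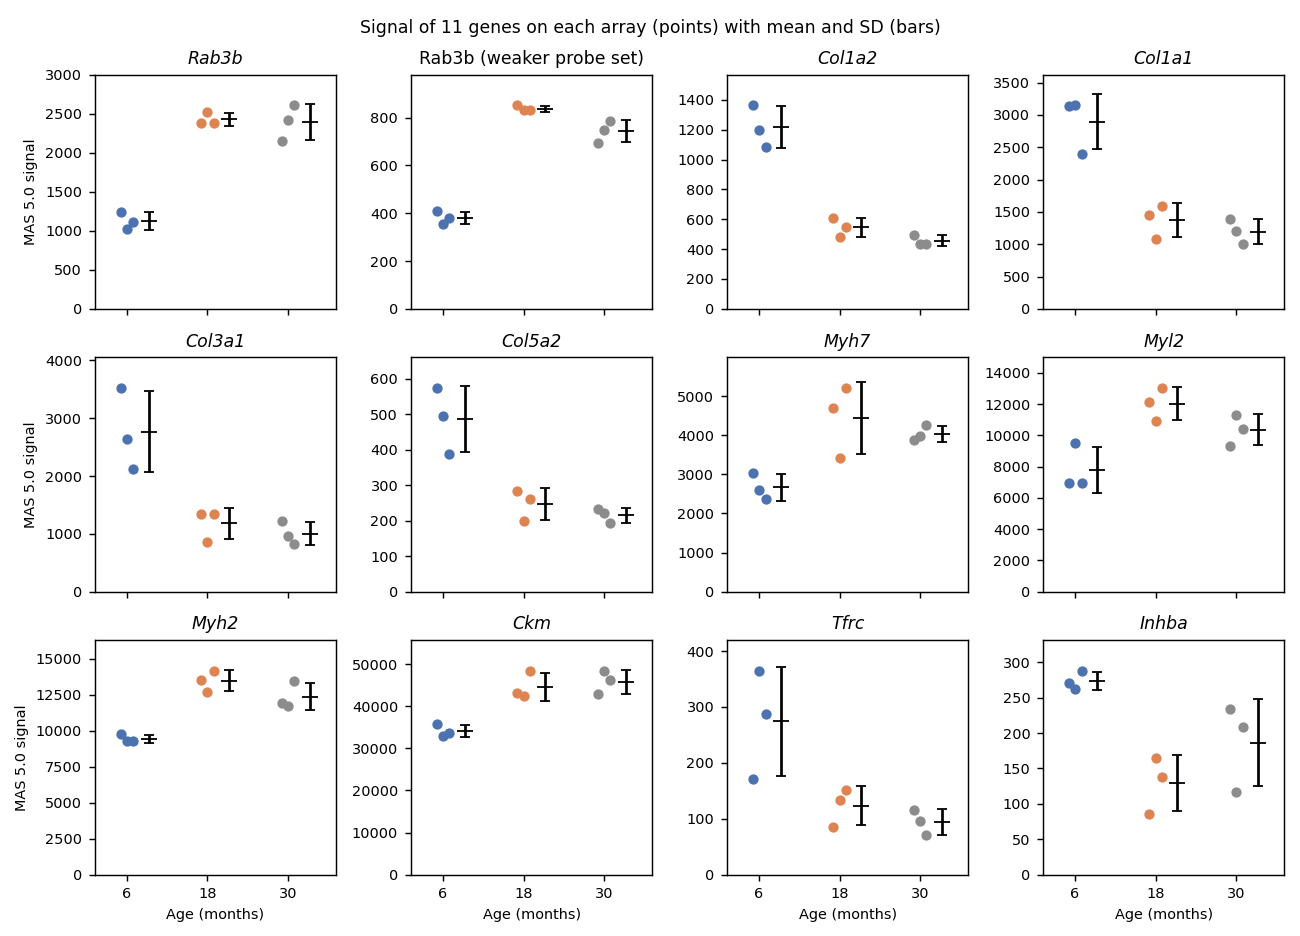
MAS 5.0 signal of 11 genes (12 probe sets) on each array (points) by age in months (horizontal axis), with mean and SD over 3 arrays (bars); blue is 6, orange 18 and grey 30 months. The 3 arrays of 18 months lie above those of 6 months for Rab3b, Myh7, Myl2, Myh2 and Ckm and below them for the collagens, Tfrc and Inhba.

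Slow-fibre contractile genes lay mostly on the higher side. Of 11 tested genes 9 had a change above 0, with a median of 0.27, and 0.25 after quantile normalization. Without overlap 3 were higher, against 5.22% of all genes, and 1 was lower. In limma 0 of the 11 passed the adjusted threshold, and 3 were higher at an unadjusted p under 0.05, against 2.97% of all genes.

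*Myh7*, the slow type I myosin heavy chain, read 3044, 2588 and 2357 at 6 months and 4699, 3417 and 5207 at 18 months on its stronger probe set. The change was 0.72 (SE 0.17, limma adjusted p = 0.264). The weaker probe set of the same sequence read 655, 627 and 704 at 6 months and 1252, 1039.9 and 1840.3 at 18 months, a change of 0.98 (SE 0.18). The arrays do not overlap on either, and 18-month array 3 is the highest on both. Myosin heavy chains are a family of near-identical genes, and the stronger probe set has the suffix that Affymetrix gave to probes shared within a family, so signal from relatives such as *Myh6* cannot be told apart there. *Myh6* itself, named after its values were seen, had 0.29 (SE 0.27) with overlap, 0.18 without 6-month array 3 and 0.0146 without 18-month array 3, and its 2 other tested probe sets gave 0.16 and 0.66 with overlap.

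*Myl2*, the slow regulatory light chain, was higher without overlap on all 3 of its probe sets. The strongest read 6932, 9486 and 6933 at 6 months and 12104, 10925 and 13032 at 18 months. Its change was 0.64 (SE 0.15, limma adjusted p = 0.288), and the others gave 0.60 and 0.42. *Actn2*, a Z-disc actinin, read 4105, 5447 and 5154 at 6 months and 5928, 8314 and 6679 at 18 months, a change of 0.50 (SE 0.16). *Csrp3*, a Z-disc LIM protein that is more abundant in slow fibres, went against the list at -0.37 (SE 0.16) without overlap. The essential light chain *Myl3* (0.31) and the slow troponin I *Tnni1* (0.27), named after their values were seen, overlapped between ages, and *Myl3* was 0.15 without 6-month array 3 and 0.19 without 18-month array 1.

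Fast-fibre genes lay on the higher side by an amount that depended on the scaling. Of 12 tested, 11 had a change above 0 and 4 were higher without overlap, against 5.22% of all genes, with a median of 0.19, which was 0.00317 after quantile normalization, when 8 of 12 lay above 0. Of the 12, 9 are also in the skeletal muscle identity list, whose median went from 0.22 to 0.00499. *Myh2*, the type IIa myosin, read 9770.2, 9279.7 and 9279.8 at 6 months and 13563, 12718 and 14173 at 18 months. All 18-month arrays lie well above the 6-month arrays, with a change of 0.51 (SE 0.11, limma adjusted p = 0.22), and 0.45 after quantile normalization.

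The other fast myosins had smaller changes. *Myh1*, type IIx, had 0.25 (SE 0.13) without overlap, and *Myh4*, type IIb and named after its values were seen, 0.17 (SE 0.16) with overlap and 0.0004 without 18-month array 3. *Atp2a1*, the fast calcium pump of the sarcoplasmic reticulum, read 26663, 24828 and 22673 at 6 months and 31385, 31325 and 34807 at 18 months. Its change of 0.40 (SE 0.12) became 0.21 after quantile normalization. *Mybpc2*, the fast myosin-binding protein C, had 0.20 (SE 0.11), 0.13 without 18-month array 2, and 0.14 with overlap after quantile normalization.

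The dystrophin complex and cytoskeleton list was near the median of all genes. Of its 12 tested genes 8 had a change above 0, with a median of 0.05, and 3 were higher (5.22% of all genes) and 1 lower (8.69% of all genes) without overlap. These are *Actn2* and *Csrp3*, given above, *Flnc* and *Ldb3*. *Flnc*, muscle filamin, gave 0.46 and 0.48 on its 2 probe sets (SE 0.13 and 0.14). The stronger of them read 2967, 3362 and 3482 at 6 months and 4475, 5185 and 3954 at 18 months. *Cryab*, the small heat shock protein αB-crystallin and no member of that list, read 15029, 14522 and 16343 at 6 months and 18415, 21723 and 21676 at 18 months, a change of 0.43 (SE 0.13), and its other probe set gave 0.22. Both *Cryab* probe sets stayed above 0 after quantile normalization, at 0.23 and 0.07, but then overlapped between ages. The Z-disc protein *Ldb3* gave 0.49 without overlap on 1 probe set (0.29 without 6-month array 1) and -0.07 and -0.02 on the other 2.

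Energy metabolism showed small upward values spread over many genes. Of 34 tested genes of the respiratory chain and ATP synthase 30 had a change above 0, with a median of 0.09, and 7 were higher without overlap, against 5.22% of all genes. After quantile normalization 20 of 34 lay above 0 and the median was 0.00782. The mitochondrial phosphate carrier *Slc25a3* read 17499, 15864 and 15514 at 6 months against 20448, 20285 and 21534 at 18 months, the largest change of that list at 0.35 (SE 0.10). After quantile normalization its change was 0.16, still without overlap. The count of 7 without overlap is from the original scaling, and *Atp5f1e* and *Uqcr11*, given below, overlapped after quantile normalization. Of 8 creatine and adenylate genes 7 had a change above 0 under both scalings, with medians of 0.15 and, after quantile normalization, 0.10. Muscle creatine kinase, *Ckm*, read 35755, 33084 and 33649.7 at 6 months and 43176, 42438 and 48488 at 18 months, a change of 0.39 (SE 0.11), and 0.12 with overlap after quantile normalization. The creatine transporter *Slc6a8* had 0.20 (SE 0.10) and 0.19 under the same scalings.

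Fatty acid genes leaned the same way: 25 of 32 had a change above 0, with a median of 0.09, and 24 of 32 with a median of 0.08 after quantile normalization. *Fabp3*, the fatty acid carrier of muscle, read 14251, 13841 and 14569 at 6 months and 17529, 16758 and 18899 at 18 months, a change of 0.32 (SE 0.12). That change was 0.17 after quantile normalization. *Ech1*, a peroxisomal and mitochondrial isomerase of fatty acid oxidation, had 0.30 (SE 0.17), and 0.23 with overlap after quantile normalization. For 23 glycolysis genes the median was 0.08, and -0.000411 after quantile normalization. For 36 ribosomal protein genes it was 0.05 and -0.02. In limma 0 genes of the respiratory, creatine, fatty acid, glycolysis and ribosomal lists passed the adjusted threshold, and 1, 2, 1, 1 and 0 were higher at an unadjusted p under 0.05. Of all genes 2.97% were, so for the respiratory (1 of 34), fatty acid (1 of 32), glycolysis (1 of 23) and ribosomal (0 of 36) lists these counts are near or below the background.

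**Figure D3:**
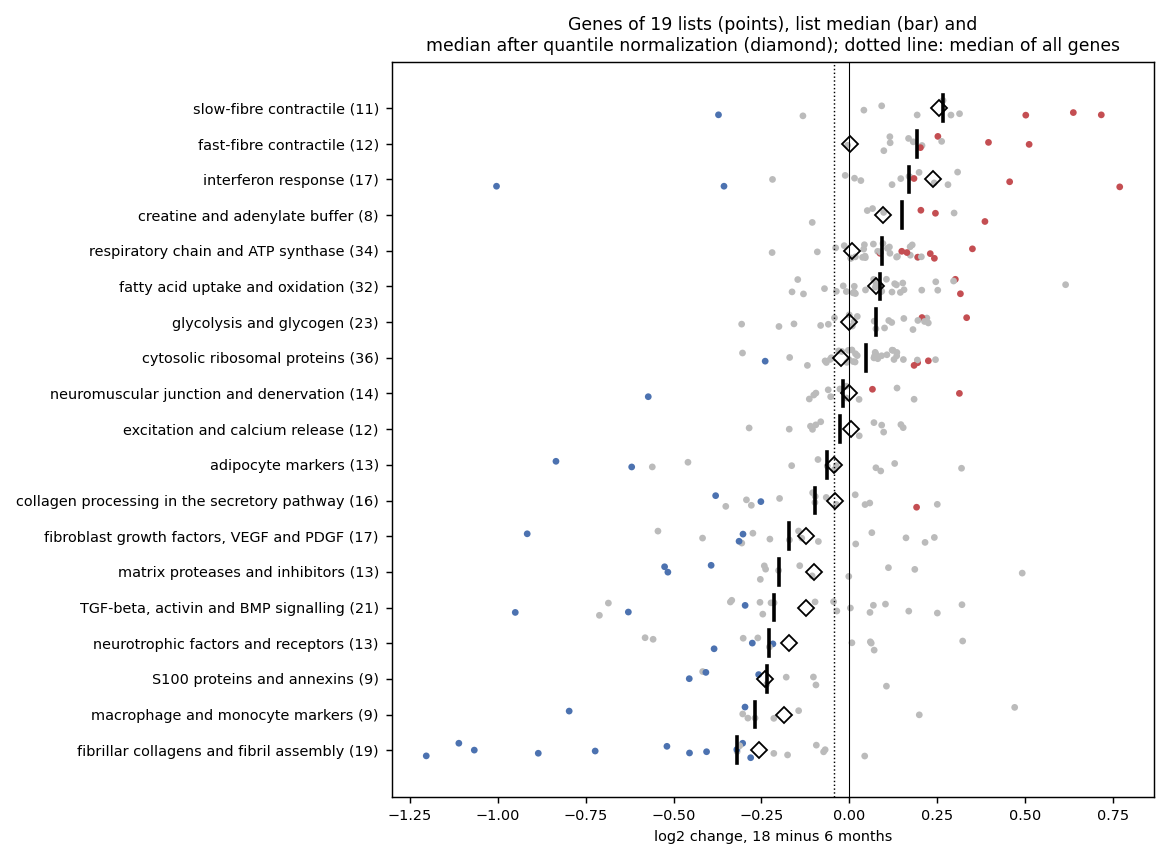
Log2 change, 18 minus 6 months, of every tested gene (points) in 19 gene lists, with the number of genes in brackets; red and blue points do not overlap between ages, black bars are list medians, diamonds the medians after quantile normalization, and the dotted line is the median of all genes. Among these 19 of the 52 lists, the bar for fibrillar collagens stands lowest at -0.32, with its diamond at -0.26. The bars for slow-fibre (0.27) and fast-fibre genes (0.19) stand highest, of which the fast-fibre diamond lies at 0.00317.

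Genes of nerve contact and of muscle regulation were mixed. Of 14 tested junction and denervation genes 5 had a change above 0, with a median of -0.02. *Chrnd*, the δ subunit of the acetylcholine receptor, read 392, 506 and 509.8 at 6 months and 602, 602 and 558 at 18 months, higher without overlap at 0.31 (SE 0.14), and 0.20 without 6-month array 1. *Cdkn1a*, the cell cycle inhibitor p21, read 327, 294 and 313 at 6 months and 141, 231 and 239.7 at 18 months, a change of -0.57 (SE 0.23), and -0.36 without 18-month array 1. *Id1* and *Id2*, which both hold back myogenic factors, lay on opposite sides without overlap, at 0.46 (SE 0.17) and -0.41 (SE 0.11). The *Id1* value was 0.26 without 6-month array 3, and a second *Id1* probe set of the same sequence gave -0.05 with overlap. The second *Cdkn1a* probe set gave -0.27 with overlap.

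Growth factor signalling held more lower than higher values, but so did all genes, of which 42.2% had a change above 0 (median -0.04). Of 21 genes of TGF-beta, activin and BMP signalling 14 had a change below 0, with a median of -0.21 (-0.12 after quantile normalization), and 3 were lower without overlap, against 8.69% of all genes. Without the 2 that are also in the list of myogenic regulators, 12 of 19 lay below 0, with a median of -0.10. *Inhba*, which encodes the subunit of activin A, read 270.2, 262 and 288 at 6 months against 86.2, 164 and 138 at 18 months. The change was -0.95 (SE 0.24, limma adjusted p = 0.314). Follistatin, *Fst*, which binds activin, gave -0.63 (SE 0.21) without overlap on 1 probe set and -0.31 with overlap on the other, made to the same sequence. The related *Fstl1* had -0.30 (SE 0.12).

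Of 17 genes for fibroblast growth factors, VEGF and PDGF, 12 had a change below 0, with a median of -0.17. *Hbegf*, a ligand of the EGF receptor, had -0.92 (SE 0.35) on weak signals of 103, 121 and 152 at 6 months and 90.2, 22.4 and 53.2 at 18 months, where the mean at 18 months is under the level of the filter. Of 13 genes for neurotrophic factors and receptors 8 lay below 0, near the share of all genes. Their median was -0.23 (-0.17 after quantile normalization). The shared cytokine receptor chain *Il6st* had -0.38 (SE 0.12), the CNTF receptor *Cntfr* -0.28 (SE 0.18) and neurotrophin 3, *Ntf3*, -0.22 (SE 0.11), or -0.14 without 18-month array 2. In limma 0 genes of these 3 groups passed the adjusted threshold, and 5, 2 and 1 were lower at an unadjusted p under 0.05, against 5.72% of all genes.

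Annexins and S100 proteins, which bind membranes and calcium, lay on the lower side, 8 of 9 with a median of -0.23 and -0.24 after quantile normalization. *S100a10* had -0.46 (SE 0.20), *Anxa5* -0.41 (SE 0.12) and *Anxa2* -0.26 (SE 0.13), all without overlap. The second *Anxa5* probe set gave -0.15 with overlap, and *Anxa2* was -0.16 without 18-month array 2. At an unadjusted p under 0.05 limma had 3 of the 9 lower, against 5.72% of all genes, and 0 passed the adjusted threshold.

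Interferon response genes had a median change of 0.17, and 0.24 after quantile normalization, with 13 of 17 above 0. Without overlap 3 were higher, against 5.22% of all genes, and 2 were lower, against 8.69%. *Irf7*, a factor that switches on interferon genes, read 76.8, 107 and 91.7 at 6 months and 202, 158 and 176 at 18 months. Its change was 0.77 (SE 0.14, limma adjusted p = 0.122), and its other probe set gave 0.49 with overlap. *Oas1a*, an antiviral synthetase, had 0.46 (SE 0.16). *Adar*, an RNA-editing enzyme, went the other way on weak signals of 86.8, 86.7 and 96.5 at 6 months and 29.5, 25.3 and 31.8 at 18 months, without overlap. The size of that change is not given, since the 18-month signals lie under the pseudocount. At 30 months *Adar* read 107, 134 and 66.2, overlapping the 6-month arrays.

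Markers of macrophages, mast cells and nerve sheath were on the lower side or near the median of all genes. Macrophage and monocyte markers had a median of -0.27 over 9 genes, 7 below 0, with summed signals of 2485 to 2747 at 6 months and 1965 to 2375 at 18 months. All 4 tested mast cell and granulocyte markers lay below 0, 0 of them without overlap. Their sums were 963 to 1188 at 6 months and 647 to 958 at 18 months, which nearly touch. *F13a1*, coagulation factor XIII of macrophages, read 219, 118 and 133 at 6 months and 56.8, 82.6 and 84.5 at 18 months, a change of -0.80 (SE 0.19). Schwann cell and myelin markers had a median of -0.05 over 13 genes, with *Prx*, periaxin, at -0.31 and *Pmp22* at -0.26 without overlap. No more than these 2 were lower without overlap (8.69% of all genes), and 5 of the 13 lay above 0. The second *Pmp22* probe set gave -0.02 with overlap. Endothelial markers had a median of -0.10 over 12 genes, and smooth muscle and pericyte markers 0.10 over 10.

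Beyond the lists, the rule for naming took in each direction the 15 genes of largest change without overlap and with a mean signal of at least 200 in the higher age. Among those lower at 18 months were *Anp32a*, a nuclear phosphoprotein that inhibits protein phosphatase 2A, and *Cyba*, the membrane subunit of NADPH oxidase. *Anp32a* read 465, 612 and 556 at 6 months against 346, 136 and 126 at 18 months, the largest change of the rule at -1.41 (SE 0.29, limma adjusted p = 0.214). A second tested probe set of a different sequence gave 0.29 (SE 0.16) with overlap. *Cyba* read 419, 417 and 351 at 6 months and 80.5, 263 and 175 at 18 months, a change of -1.17 (SE 0.29). At 30 months both stood close to 6 months, with *Anp32a* at 526, 624 and 546 and *Cyba* at 383, 403 and 298.

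*Tfrc*, the transferrin receptor that brings iron into cells, read 171, 365 and 288 at 6 months against 84.5, 134 and 152 at 18 months. The lowest 6-month array is only a little above the highest at 18 months, and the change was -0.95 (SE 0.26). The retinoid receptor *Rxra* had -0.98 (SE 0.47) but -0.58 without 18-month array 1, which read lowest. The plasma anticoagulant protein S, *Pros1*, had -0.76 (SE 0.29), and -0.41 without 18-month array 3. *Adap1*, which acts on Arf GTPases, had -0.71 (SE 0.27), and -0.41 without 18-month array 1.

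Several of the lower values, lipid synthesis among them, depended in part on 6-month array 1. *Fasn*, fatty acid synthase, read 778, 407 and 286 at 6 months and 234, 220.0 and 266 at 18 months, where that array alone is far above the rest. Its change was -0.83 (SE 0.28), and -0.46 without that array. The desaturase *Scd* read 2347, 968 and 936 at 6 months and 820.3, 930.5 and 742 at 18 months, a change of -0.62 that became -0.19. *Cdo1*, cysteine dioxygenase, read 856, 364 and 252 at 6 months and 218, 228 and 211 at 18 months, and its change of -0.89 became -0.42. *Igfbp5*, which binds insulin-like growth factors, read 3032, 1693 and 1534 at 6 months and 1298, 986 and 1177 at 18 months, and -0.78 became -0.48. The same array had the highest sum of 13 adipocyte markers, 20514 against 15654 and 16252 on the other 6-month arrays and 15892 to 17179 at 18 months. The 13 include *Fasn* and *Scd*, so the sum holds some of the same values. The part of that array in these 4 differences was not tested. The second tested probe sets of *Fasn* (-0.71), *Cdo1* (-0.52) and *Igfbp5* (-0.75, SE 0.66) overlapped between ages.

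Other genes the rule took as higher at 18 months follow. *Ptpn23*, a phosphatase-like protein of endosomal sorting, read 80.6, 84.4 and 118 at 6 months and 139, 246 and 227 at 18 months, a change of 0.88 (SE 0.20), but its second probe set, made to the same sequence, gave -0.24 with overlap. *Cltb*, the clathrin light chain B, read 1129, 1210.0 and 1339 at 6 months and 1907, 1883 and 1649.9 at 18 months, a change of 0.55 (SE 0.12, limma adjusted p = 0.22), while its much weaker second probe set gave 0.02 with overlap. *Ulk2*, a kinase that starts autophagy, read 176, 178 and 203 at 6 months and 298, 298 and 275 at 18 months, a change of 0.57 (SE 0.12, limma adjusted p = 0.214). *Rin1*, a Ras effector that activates Rab5, is in the list of secretion and Rab genes and read 23.8, 45.2 and 48.5 at 6 months and 143, 124 and 114 at 18 months, a change of 1.18. Both *Rin1* at 6 months and *Adar* at 18 months lie under the level the signal filter asked of the mean over all arrays, so they were tested only through the ages where they are higher, and no p is given. Of the 40 genes of that list, 22 had a change above 0, with a median of 0.02, and 5 were higher (5.22% of all genes) and 3 lower (8.69% of all genes) without overlap, of which the lower count is near its background.

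The sulphonylurea receptor *Abcc8*, a regulatory subunit of potassium channels, read 124, 119.9 and 164 at 6 months and 186, 283 and 227 at 18 months, a change of 0.65 (SE 0.16), and its second probe set gave 0.23 with overlap. Its relative *Abcc9*, the subunit of the channel in muscle, had -0.37 (SE 0.15) without overlap on its strongest probe set, -0.23 without 6-month array 1, and -0.04 and -0.12 with overlap on the other 2. The atypical protein kinase C *Prkcz* had 0.63 (SE 0.17), the secretin receptor *Sctr* 0.50 (SE 0.11), the ubiquitin ligase *Mycbp2* 0.50 (SE 0.15) and *Prune2* 0.50 (SE 0.21). *Pdcd10*, a vascular scaffold protein, had 0.66 (SE 0.38), but 0.10 without 6-month array 1, which read 61.9 against 252 and 282 on the others of its age, and its second probe set gave 0.05 with overlap. The potassium channel *Kcnj1* had 0.77 (SE 0.27), and 0.44 without that array, while its other tested probe set, of another sequence, gave -0.44 without overlap, so no direction of the gene can be read. At the edge of the rule the last named was *Mycbp2* at 0.498 and the next gene had 0.497; below 0 the last was *Adap1* at -0.71 and the next had -0.70.

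Many genes are measured by more than one probe set, which gives a check within each array that does not need more animals. Of 898 genes with at least 2 tested probe sets, 489 (54.5%) had all of them on one side, 221 above and 268 below 0. Among the 678 genes with exactly 2, it was 426 (62.8%). Pairs made to the same sequence (488) lay on the same side in 61.1% of cases and pairs of different sequences (1041) in 56.7%. Where at least 1 of the pair did not overlap between ages the shares were 74.8% of 115 and 64.1% of 234. Where both did not overlap, 11 of 14 and 25 of 31 pairs went the same way.

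Signal strength separated the same-sequence pairs more than those of different sequences. With both mean signals at least 1000, 70.2% of same-sequence and 60.5% of different-sequence pairs lay on one side, and all 6 and all 9 pairs without overlap in either probe set went the same way. With a mean under 200 in at least 1 of them the shares were 57.6% and 56.9%. Pairs share their arrays and RNA, so they are no replicates of the ages.

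Of the 898 genes with at least 2 tested probe sets, 10 had every one higher without overlap and 8 had every one lower. The 10 are *Rab3b*, *Myh7*, *Myl2*, *Sctr*, *Flnc*, *Cryab*, *Park7*, *Idh2*, *Atp5f1e* and *Uqcr11*. Of these, *Park7*, a protein that guards against oxidative stress, gave 0.35 and 0.22, and *Idh2*, the mitochondrial isocitrate dehydrogenase, 0.29 and 0.21. The respiratory chain gene *Uqcr11* (0.08 and 0.10) and the ATP synthase gene *Atp5f1e* (0.10 and 0.16) have changes below the SE or close to it, and the stronger *Uqcr11* probe set turned to -0.14 after quantile normalization. Under that scaling both probe sets of *Cryab*, *Atp5f1e* and *Uqcr11* and the stronger of *Idh2* (0.06) overlapped between ages.

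The 8 lower genes are *Col1a1*, *Col3a1*, *Mmp2*, *Akr1c3*, *Dusp6*, *Hspe1*, *Enpp2* and *Btg1*. *Akr1c3*, an aldo-keto reductase, gave -0.64 and -0.44. *Dusp6*, a phosphatase that turns off ERK kinases, gave -0.45 and -0.44. *Hspe1*, the mitochondrial co-chaperonin, read 5262, 4641 and 4001 at 6 months and 3578, 3335 and 3147 at 18 months on its stronger probe set, a change of -0.46 (SE 0.14), and -0.26 on the other. *Enpp2*, autotaxin, gave -0.33 and -0.23, and *Btg1*, an anti-proliferative gene, -0.20 and -0.29. After quantile normalization the weaker probe sets of *Mmp2* and *Dusp6* and the stronger of *Btg1* overlapped between ages.

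In 9 genes probe sets went opposite ways without overlap, and the 6 with the widest gaps are given here. *Kcnj1* had the widest, with 0.77 on one sequence and -0.44 on another. *Gnas*, the stimulatory G protein α subunit, ranged from 0.28 on its strongest probe set to -0.66 on its weakest. That weakest one read 429, 336 and 356 at 6 months and 225, 253 and 196 at 18 months. *Ddx39b*, an RNA helicase, gave 0.30 and -0.44 on probe sets of the same sequence, and the first was 0.18 without 18-month array 2. *Pmpcb*, a subunit of the mitochondrial processing peptidase, gave 0.30 on signals of 766, 776 and 827 at 6 months and 971, 1034 and 937 at 18 months and -0.28 on the stronger probe set of the same sequence. The remaining 2, the cytochrome P450 reductase *Por* and the lipid phosphatase *Plpp3*, gave 0.28 against -0.37 and 0.17 against -0.38, where the 0.17 of *Plpp3* was 0.04 without 6-month array 1. For these 6 genes no direction of the gene can be read from the arrays.

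**Figure D4:**
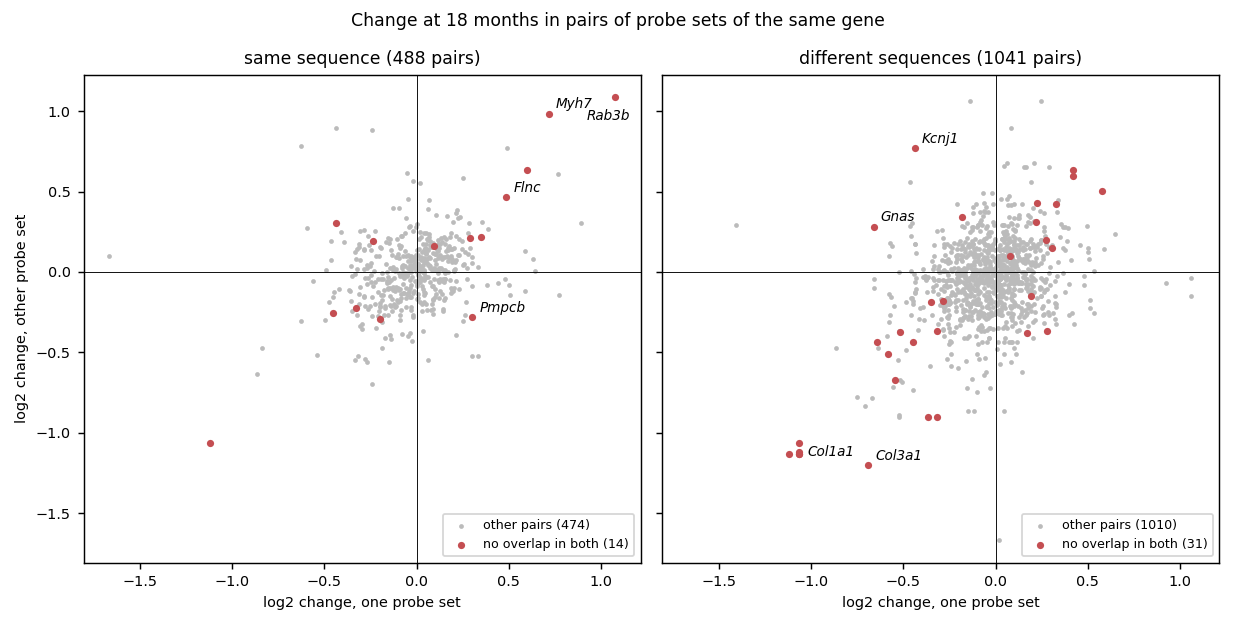
Log2 change at 18 months of one probe set (horizontal axis) against that of another of the same gene (vertical axis), for 488 pairs made to the same sequence (left) and 1041 made to different sequences (right). Red points do not overlap between ages in both probe sets (14 and 31 pairs); Rab3b, Myh7, Flnc, Col1a1 and Col3a1 lie where both changes have the same sign, Pmpcb, Gnas and Kcnj1 where they do not.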

How the data were processed

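Rat posterior cricoarytenoid muscle of 6, 18 and 30 months was measured on 3 arrays per age, and 4 animals were pooled for each. Per the labels, the authors hybridized biotinylated cRNA and computed signal intensity with Affymetrix MAS 5.0. The deposited intensities are linear and scaled to one trimmed mean, 500.868 to 500.968. The dye field of the labels lists Cy3 and Cy5, but 1 channel was assumed. The software release is not given in the sources used here.

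Of 8799 probe sets 59 controls were left out. Log2(signal + 32) of the upper 60% by mean (5244 of 8740, a mean log2 of at least 6.60) was fitted over all 9 arrays with 1 mean per age (limma 3.58.1, R 4.3.3, lmFit and eBayes, 6 residual and 3.69 prior degrees of freedom). Two-sided p-values were adjusted over all 5244 (Benjamini-Hochberg), and calls have an adjusted p under 0.05. The fit was tested on simulated data. The 30-month arrays enter the estimate of spread and the values given beside. They also enter the signal filter, the choice of each gene's strongest probe set and the quantile normalization. The study's own detection and difference calls were not used. The number of arrays limits the precision.

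Names come from the platform annotation, where 7006 probe sets have 1 symbol, 308 several and 1426 none; 6985 gene IDs matched the GRCr8 table and 0 symbols changed. Named genes are those past the threshold, in each direction the 15 largest changes without overlap at a mean signal of at least 200, genes whose tested probe sets all lie without overlap on one side (up to 12) or on both sides (up to 6), and from each of 52 lists up to 4 without overlap or else the 2 strongest. Not all names the rule gives are printed. The lists were written from general knowledge. The members and lists were chosen with earlier results of these data known. Alternatives were the pseudocount, filter, quantile normalization, a replicate block, a variance trend, fitting 6 arrays, the fold ratio and leaving out each array.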

Additional observations from a re-analysis of the deposited data

How the results depend on the processing

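Against 4 probe sets past the adjusted threshold, fitting only 6 arrays gave 0 (378 at an unadjusted p under 0.05), a variance trend 8, pseudocounts of 8 and 64 gave 3 and 6, quantile normalization 6, no filter 6 and the upper 40% 5. Leaving out single arrays gave 0 to 5. Replicate numbers are shared between the ages. Deviations of same-numbered arrays correlated at 0.13, 0.03 and -0.02, and those of differently numbered arrays at -0.15 to 0.15. With 3 arrays per age these values cannot decide whether the numbers pair the arrays. A replicate block in limma gave 6 calls, with 490 probe sets at an unadjusted p under 0.05 against 452. Without the filter 1090 probe sets did not overlap, and leaving out single arrays, which makes non-overlap easier, gave 1169 to 1496 against 717. The fold rule took 75, but 314 without the filter, 29 in the upper 40%, 137 at a ratio over 1.5, 32 at a ratio over 2, and 83 to 148 without single arrays. Genes with all probe sets on one side numbered 797 of 1565 without the filter against 489 of 898. The number of lists whose median lay at least 0.1 from that of all genes, 21, stayed within 1.5 times under every alternative run.
Among the 103 named genes under 17 alternatives, 1713 of 1734 gene values kept direction and side of the threshold. With only *Rab3b* and *Col1a2* past the threshold, keeping its side says little of the sizes, several of which moved with single arrays as given above. Only *Sparc*, *Por* and *Uqcr11* turned: *Sparc* was -0.0794 after quantile normalization and between -0.0485 and 0.155 without single arrays, the strongest *Por* probe set between -0.0054 and 0.1995 without single arrays, and *Uqcr11* -0.138 after quantile normalization. The cartilage list had 0 genes left in the upper 40% and so no median there.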

Other observations

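Several groups not described above had members without overlap, given as values. Of 10 tested clock genes 5 had a change above 0, and *Per2*, a repressor in the clock, read 101, 76.7 and 100.2 at 6 months and 213, 108 and 211 at 18 months, a log2 change of 0.71 (SE 0.24). The time of day of sampling is not given in the sources used here. Of 32 protein phosphatase genes 14 lay above 0, with a median of -0.02, and *Dusp5*, which acts on ERK kinases as *Dusp6* does, had -0.50 (SE 0.17), and -0.32 without 18-month array 3. Among 37 genes of cyclic AMP, MAPK and AMPK kinases, 23 lay above 0, and *Prkaa2*, the catalytic α2 subunit of AMPK in muscle, had -0.60 (SE 0.18). *Gpx2*, a glutathione peroxidase, was higher without overlap at 0.64 (SE 0.15), on weak signals of 98.4, 80.2 and 102 at 6 months and 160.1, 187 and 143 at 18 months. *Cyp24a1*, which breaks down vitamin D, read 59.0, 59.6 and 102 at 6 months and 167, 157 and 113 at 18 months, a change of 0.76 (SE 0.22). None of these passed the adjusted threshold of limma, where the smallest adjusted p among them was 0.288.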
